A study of Sus scrofa with 11 samples.

Results

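Macrophages export much of their surplus cholesterol through a pair of membrane pumps whose genes are switched on by the liver X receptors (LXRs). The genes described here are those receptors, NR1H3 (LXR alpha) and NR1H2 (LXR beta), the pumps ABCA1 and ABCG1, the LXR target genes MYLIP, SREBF1, LPCAT3 and PLTP, and PPARG, a nuclear receptor that acts upstream of NR1H3 in macrophages. They were taken by gene name from a table of 35670 genes in pig (Sus scrofa) carotid artery. The table names 8 of the 9, and PLTP is the unnamed gene ENSSSCG00000007435 on chromosome 17, whose span from 48089786 to 48101515 coincides with RefSeq PLTP. All 9 passed the filter on low counts.

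RNA was measured by poly-A sequencing in 5 animals given SWNT-SHP1i and 5 given SWNT. SWNT are single-walled carbon nanotubes, the carrier, and SWNT-SHP1i are nanotubes loaded with an inhibitor of SHP-1, a phosphatase encoded by PTPN6 that passes on the "do not engulf" signal of macrophages. All animals of both groups ate a fat- and calorie-rich Western diet for 12 weeks and were infused intravenously each week, under general anaesthesia, with 400 nM of their particle. The study set out to learn whether the loaded particle lowers the number of apoptotic cells and the inflammation of the artery while sparing the animals anaemia. The sources used here give no breed, sex or age, no group without particles was analysed here, and SWNT-SHP1i replicate 4, labelled as having died before harvest, was not analysed here.

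LXRs sense oxysterols, oxidised forms of cholesterol, and bind DNA together with the retinoid X receptors. When cholesterol accumulates they raise the pumps, which hand cholesterol to apolipoprotein A-I and to high-density lipoprotein, and they lower the uptake of lipoproteins. In atherosclerotic arteries this route is best known from macrophages, which take in modified lipoproteins and the lipid of engulfed dying cells. These roles are known mainly from human and mouse cells.

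Libraries held between 27593564 and 47718854 counts. Contractile smooth muscle markers summed to 23500 to 54700 CPM (read counts corrected for library depth) in SWNT-SHP1i libraries and to 46200 to 69200 CPM in SWNT libraries. All 12 of these markers were detected. The 20 macrophage markers summed to 565 to 3160 CPM in SWNT-SHP1i and to 529 to 1550 CPM in SWNT, and 4 of 5 SWNT-SHP1i sums exceeded every SWNT sum. None of these 20 markers was at 0 in all libraries. Markers of lipid-handling macrophages, of which 11 of 12 had positive fold changes, summed to 1270 to 17000 CPM in SWNT-SHP1i and to 1170 to 1620 CPM in SWNT. Without SWNT-SHP1i replicate 6, which holds the 17000, the sums ended at 2090 CPM, 8 of 12 were positive and their median log2 fold change was 0.24, against 2.10 with it. Fibroblast markers, 11 of 11 positive, summed to 70000 to 105000 CPM in SWNT-SHP1i and to 40400 to 83500 CPM in SWNT. Neutrophil markers, 7 of 7 positive with or without replicate 6, summed to 3.06 to 345 CPM in SWNT-SHP1i and to 4.31 to 13.3 CPM in SWNT. The 345 was in replicate 6 and the next highest sum, 76.9, in replicate 3. Without both of these libraries 4 of 7 were positive, and the median log2 fold change was 1.05, against 2.96 with them. Skeletal muscle markers summed to 8.12 to 166 CPM in SWNT-SHP1i and to 7.63 to 24.0 CPM in SWNT. Only 1 of them, CKM, passed the filter on low counts. It made up nearly all of these sums, at 8.06 to 166 CPM in SWNT-SHP1i and 6.92 to 23.9 CPM in SWNT. Schwann cell and nerve markers, 0 of 6 positive, summed to 83.3 to 146 CPM in SWNT-SHP1i and to 170 to 229 CPM in SWNT. PTPN6 itself stood at 12.0 to 123 CPM in SWNT-SHP1i and at 13.1 to 28.5 CPM in SWNT, with a log2 fold change of 1.34 ± 0.51 (SE; edgeR adjusted p = 0.997), and 0.58 without SWNT-SHP1i replicate 6. SWNT-SHP1i replicate 6 stood apart, with the highest macrophage and the lowest smooth muscle sum. It also had the fewest counts, 27593564, and the lowest scaling factor, 0.872 against 0.939 to 1.10 in the others. What sets this library apart was not tested. SWNT-SHP1i replicate 3 had 8.61% of its counts on mitochondrially encoded genes, against 1.16% to 2.97% in the other libraries. Because tissue was sequenced in bulk, more or fewer cells of a type and more or less RNA per cell cannot be told apart.

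ABCA1, at 1.74-fold, had the smallest p of the 9 genes, and its fold change was about as large without replicate 6. ABCG1, NR1H3, PLTP, SREBF1 and LPCAT3 also had positive fold changes, of 1.48 to 1.97, but each was smaller without that library. NR1H2 and MYLIP had folds of 0.917 and 1.14, and PPARG varied more within SWNT than between groups. None of the 9 passed the test over all genes. The test was edgeR's quasi-likelihood test with Benjamini-Hochberg adjustment, and it called 0 of 15930 genes (0%) at an adjusted p under 0.05. DESeq2 and limma-voom also called 0. An unadjusted edgeR p under 0.05 was found for 739 genes, 3.49% of all genes in the higher and 1.15% in the lower direction. That is no more than chance alone would give at this threshold.

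Of the 9 genes, 8 had a positive fold change (SWNT-SHP1i over SWNT), where 50.8% of all genes tested did. Their median log2 fold change was 0.57, beside 0.0056 over all genes tested. ABCA1, ABCG1 and NR1H3 had an unadjusted p under 0.05 in the higher direction, that is 3 of 9 against 3.49% of all genes. In the lower direction it was 0 of 9, where all genes gave 1.15%. Without SWNT-SHP1i replicate 6 the median was 0.30, and ABCA1 alone had such a p (1 of 9, against 2.59% of all genes). In 0 of the 9 did all SWNT-SHP1i libraries lie above all SWNT libraries, as they did for 0.0816% of all genes, and in 0 of the 9 did they all lie below, as for 0.276%. The genes were chosen with results of these libraries known, so the counts describe them and are no independent evidence. Each library is 1 animal, and the edgeR p-values weigh the difference between the groups against the spread between these animals.

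**Figure D1:**
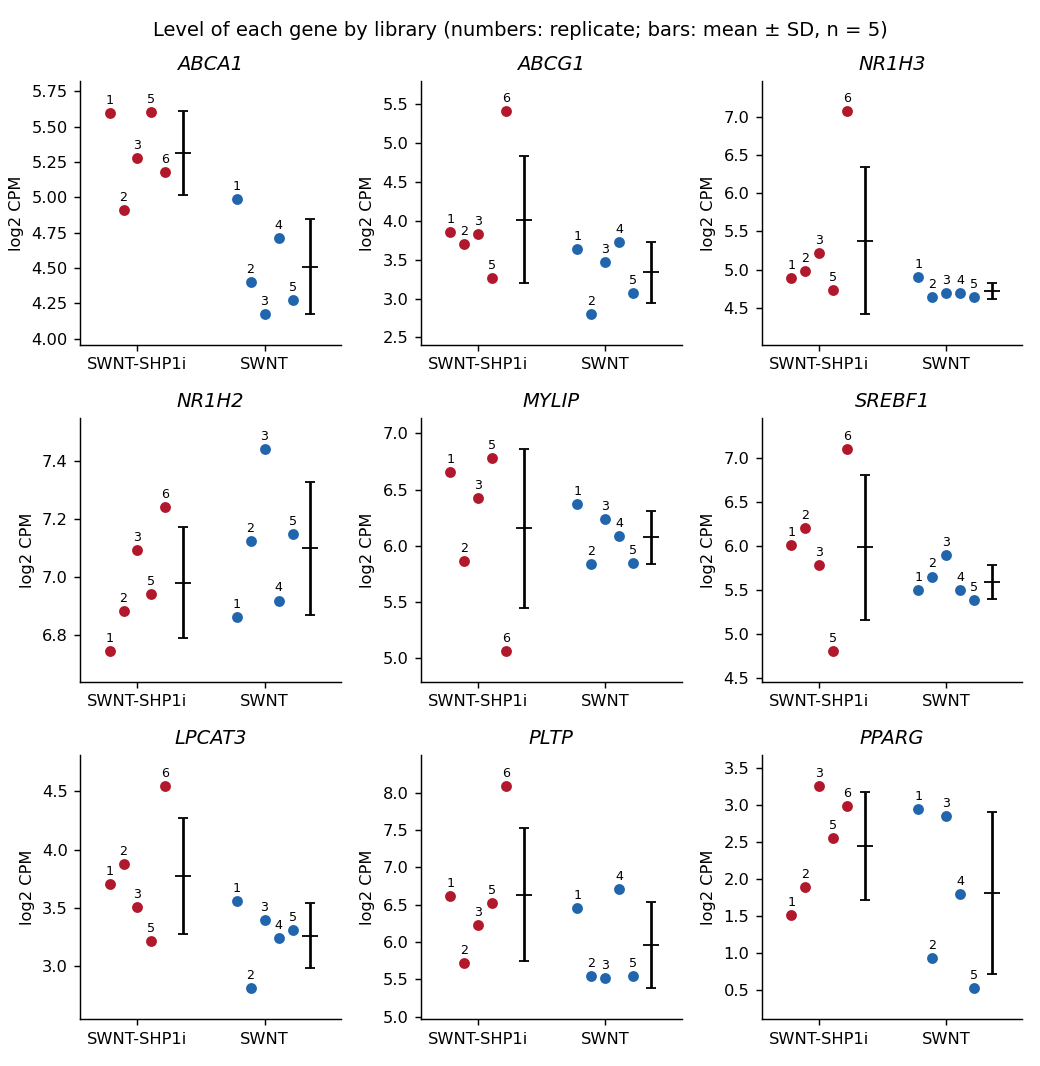
Level of each of the 9 genes in every library, in log2 CPM, with SWNT-SHP1i animals in red and SWNT animals in blue; numbers give the replicate and bars the mean ± SD (n = 5). For ABCA1, 4 of 5 red points are above every blue point (2 of 5 in TPM), while ABCG1, NR1H3, SREBF1, LPCAT3 and PLTP have their highest point in SWNT-SHP1i replicate 6.

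ABCA1, on chromosome 1 (246144277 to 246278492, minus strand, Sscrofa11.1), encodes the pump that loads cholesterol and phospholipid onto lipid-poor apolipoprotein A-I. Its level was 48.3, 30.0, 38.8, 48.6 and 36.1 CPM in SWNT-SHP1i replicates 1, 2, 3, 5 and 6, against 31.6, 21.1, 18.0, 26.1 and 19.3 CPM in SWNT replicates 1 to 5. In CPM the groups overlapped through SWNT-SHP1i replicate 2, which lay just under SWNT replicate 1, and the other 4 SWNT-SHP1i libraries were above all SWNT libraries. In TPM, which scales the libraries differently, 2 of 5 were (10.3, 6.45, 6.27, 11.07 and 5.34 TPM in SWNT-SHP1i, against 6.90, 4.34, 3.21, 5.72 and 4.23 TPM in SWNT). On the log2 scale ABCA1 averaged 5.31 ± 0.29 in SWNT-SHP1i and 4.51 ± 0.33 in SWNT (SD, n = 5 each). The log2 fold change was 0.80 ± 0.22 (SE), a 1.74-fold difference with a 95% interval of 0.32 to 1.27 on the log2 scale. ABCA1 ranked 17th by p among the 15930 genes (unadjusted p = 0.00314), and its adjusted p was 0.997. With each library left out in turn the log2 fold change ran from 0.72 to 0.93, and it was 0.83 without SWNT-SHP1i replicate 6. Over the 8 animals whose numbers begin with B9 it was 0.73.

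ABCG1, on chromosome 13 (205561951 to 205628425, plus strand), encodes the pump that passes cholesterol to high-density lipoprotein particles. Its level was 14.5, 13.0, 14.2, 9.53 and 42.5 CPM in SWNT-SHP1i replicates 1, 2, 3, 5 and 6, against 12.4, 6.90, 11.0, 13.2 and 8.35 CPM in SWNT replicates 1 to 5. Replicate 6 stood far above the rest, and the other SWNT-SHP1i values lay within or just above the SWNT range. ABCG1 averaged 4.01 ± 0.82 log2 CPM in SWNT-SHP1i and 3.34 ± 0.39 in SWNT (SD, n = 5 each). The difference was 0.85 ± 0.39 on the log2 scale (SE; edgeR unadjusted p = 0.0498, adjusted p = 0.997), and 0.30 without SWNT-SHP1i replicate 6. Per counts per base of exon, the ABCA1 to ABCG1 ratio was 1.64, 1.13, 1.34, 2.50 and 0.418 in SWNT-SHP1i replicates 1, 2, 3, 5 and 6, against 1.26, 1.50, 0.802, 0.970 and 1.13 in SWNT replicates 1 to 5. The lowest and the highest ratio of all libraries were therefore both found in SWNT-SHP1i animals, in replicates 6 and 5.

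NR1H3, on chromosome 2 (15315282 to 15334820, minus strand), encodes LXR alpha, the receptor that is rich in macrophages, liver and fat. Its level was 29.5, 31.6, 37.1, 26.6 and 134 CPM in SWNT-SHP1i replicates 1, 2, 3, 5 and 6, against 29.8, 25.0, 25.8, 25.9 and 25.0 CPM in SWNT replicates 1 to 5. SWNT animals were almost alike, with an SD of 0.106 on the log2 scale, which was lower than in all but 4.11% of the genes tested. SWNT-SHP1i animals were spread out, with an SD of 0.962, and 3 of 5 lay above the highest SWNT library. A wider spread in that group was general, with a median SD over all genes tested of 0.668, against 0.344 in SWNT. The SD of NR1H3 in SWNT-SHP1i was greater than that of 68.9% of the genes tested. NR1H3 had a log2 fold change of 0.98 ± 0.42 (SE; edgeR unadjusted p = 0.0373, adjusted p = 0.997). It was 0.25 when SWNT-SHP1i replicate 6 was left out and 0.16 when replicate 3 was left out as well. Its span shares 196 bases with MADD on the same strand and 820 with ACP2 on the other, so reads there cannot be assigned with certainty.

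NR1H2, on chromosome 6 (55239500 to 55245456, plus strand), encodes LXR beta, which most tissues express. Its level was 107, 118, 137, 123 and 151 CPM in SWNT-SHP1i replicates 1, 2, 3, 5 and 6, against 116, 139, 174, 121 and 142 CPM in SWNT replicates 1 to 5. In CPM 1 of 5 SWNT-SHP1i libraries lay below all SWNT libraries, and in TPM 4 of 5 did. NR1H2 averaged 6.98 ± 0.19 log2 CPM in SWNT-SHP1i and 7.10 ± 0.23 in SWNT (SD, n = 5 each). Its log2 fold change was -0.12 ± 0.18 (SE; edgeR adjusted p = 0.997), with a 95% interval of -0.51 to 0.26.

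The balance of both receptors was set out within each library, where scaling between libraries plays no part. The ratio of NR1H3 to NR1H2 in counts per base was 0.156, 0.151, 0.154, 0.122 and 0.502 in SWNT-SHP1i replicates 1, 2, 3, 5 and 6, against 0.145, 0.101, 0.0837, 0.121 and 0.0997 in SWNT replicates 1 to 5. LXR beta transcripts thus outnumbered LXR alpha in every library, least so in SWNT-SHP1i replicate 6, and 4 of 5 SWNT-SHP1i ratios exceeded every SWNT ratio. The mean log2 ratio differed by 0.78, and by 0.42 without SWNT-SHP1i replicate 6. This ratio and the ratio of the pumps were chosen after their values were seen, and they were not tested.

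**Figure D2:**
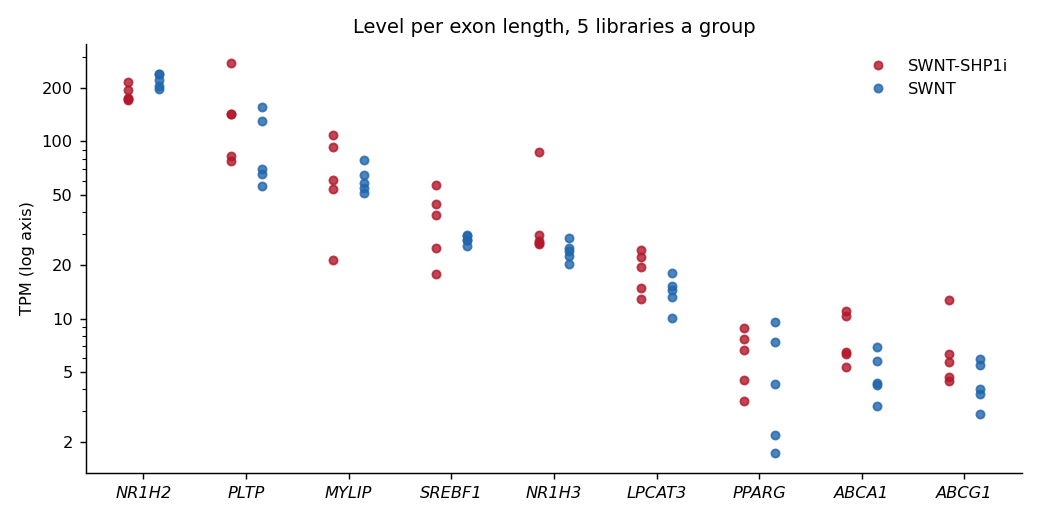
TPM (log axis), counts corrected for exon length and scaled to a common sum, for the 9 genes ordered by their mean in SWNT; each point is 1 library, SWNT-SHP1i in red and left of SWNT in blue. NR1H2 is the highest gene in SWNT, and PPARG, ABCA1 and ABCG1 share the low end at 1.73 to 12.8 TPM.

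Levels of different genes were compared as TPM, from the exon length in the table. Against CPM, TPM shifts SWNT-SHP1i relative to SWNT by -0.126 on the log2 scale for every gene alike, most in replicates 3 and 6 (-0.36 and -0.489). Differences of mean log2 level were then 0.68 for ABCA1 (0.81 in CPM), -0.25 for NR1H2 (-0.12 in CPM) and -0.045 for MYLIP (0.081 in CPM), which changed direction, and the other 6 genes stayed positive. In SWNT-SHP1i libraries the means were 187 for NR1H2, 144 for PLTP, 67.6 for MYLIP, 36.6 for SREBF1, 39.5 for NR1H3, 18.8 for LPCAT3, 6.21 for PPARG, 7.89 for ABCA1 and 6.77 for ABCG1. In SWNT libraries they were 222, 95.6, 61.4, 28.1, 24.0, 14.2, 5.02, 4.88 and 4.40 TPM in the same order of genes. In all 5 SWNT libraries NR1H2 exceeded PLTP, MYLIP exceeded SREBF1, NR1H3 exceeded LPCAT3 and LPCAT3 exceeded PPARG. SREBF1 and NR1H3 traded places between libraries (SREBF1 was higher in 2 of 5 SWNT-SHP1i and 4 of 5 SWNT libraries), and so did PPARG, ABCA1 and ABCG1 among themselves. The exporters were low in the wall as a whole: 32.2% of the genes tested had a lower mean TPM in SWNT than ABCA1 and 30.4% a lower one than ABCG1, against 96.2% for NR1H2.

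Among the other targets, SREBF1, on chromosome 12 (60733907 to 60751267, plus strand), encodes the transcription factor that drives fatty acid synthesis. Its level was 64.7, 73.8, 55.2, 27.9 and 138 CPM in SWNT-SHP1i replicates 1, 2, 3, 5 and 6, against 45.4, 50.3, 59.5, 45.3 and 42.0 CPM in SWNT replicates 1 to 5. SWNT-SHP1i libraries lay on either side of the SWNT range, 3 above it and 1, replicate 5, below it. SREBF1 had a log2 fold change of 0.57 ± 0.33 (SE; edgeR adjusted p = 0.997), and 0.19 without replicate 6.

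MYLIP, on chromosome 7 (12117240 to 12137925, plus strand), encodes the ubiquitin ligase, also called IDOL, that limits the uptake of lipoproteins. Its level was 101, 58.1, 86.0, 110 and 33.3 CPM in SWNT-SHP1i replicates 1, 2, 3, 5 and 6, against 82.8, 57.0, 75.5, 68.0 and 57.5 CPM in SWNT replicates 1 to 5. Here replicate 6 was the lowest of all libraries and replicate 5 the highest, the reverse of SREBF1. MYLIP had a log2 fold change of 0.19 ± 0.29 (SE; edgeR adjusted p = 0.997), and it ranged down to 0.028 with replicate 5 left out and up to 0.38 with replicate 6 left out.

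LPCAT3, on chromosome 5 (63708020 to 63746103, plus strand), encodes the enzyme that puts polyunsaturated fatty acids into membrane phospholipids. Its level was 13.0, 14.6, 11.3, 9.26 and 23.3 CPM in SWNT-SHP1i replicates 1, 2, 3, 5 and 6, against 11.7, 6.96, 10.5, 9.41 and 9.85 CPM in SWNT replicates 1 to 5. In SWNT-SHP1i, 3 of 5 libraries were above the SWNT range and the other 2 were inside it. The log2 fold change was 0.56 ± 0.27 (SE; edgeR adjusted p = 0.997), and 0.32 without SWNT-SHP1i replicate 6. Its span shares 195 bases with C1S and 628 with EMG1, which run on the opposite strand. The strand setting of the counting is not given in the sources used here, so reads in those bases cannot be assigned with certainty. Over all 10 libraries C1S held 266009 counts and EMG1 12181, while LPCAT3 held 236 to 599 counts per library. How far their reads enter the LPCAT3 counts was not tested.

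PLTP, on the minus strand of chromosome 17, encodes the plasma protein that moves phospholipids between lipoproteins. Its level was 97.9, 52.6, 74.8, 91.6 and 273 CPM in SWNT-SHP1i replicates 1, 2, 3, 5 and 6, against 87.4, 46.7, 45.8, 104 and 46.8 CPM in SWNT replicates 1 to 5. SWNT replicates 1 and 4 were high and the other SWNT libraries low, and only replicate 6 was above them all. The log2 fold change was 0.83 ± 0.43 (SE; edgeR adjusted p = 0.997), and 0.26 without SWNT-SHP1i replicate 6. PLTP shares 186 bases with CTSA on the other strand.

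PPARG, on chromosome 13 (68302322 to 68433944, plus strand), encodes the master regulator of fat cells, which in macrophages raises CD36 and NR1H3. Its level was 2.79, 3.67, 9.56, 5.84 and 7.86 CPM in SWNT-SHP1i replicates 1, 2, 3, 5 and 6, against 7.65, 1.86, 7.19, 3.41 and 1.38 CPM in SWNT replicates 1 to 5. The groups overlapped widely. Its SD among SWNT animals, 1.10 on the log2 scale, was greater than that of 91.4% of the genes tested. PPARG had a log2 fold change of 0.46 ± 0.53 (SE; edgeR adjusted p = 0.997), and one of -0.067 without SWNT-SHP1i replicates 3 and 6.

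**Figure D3:**
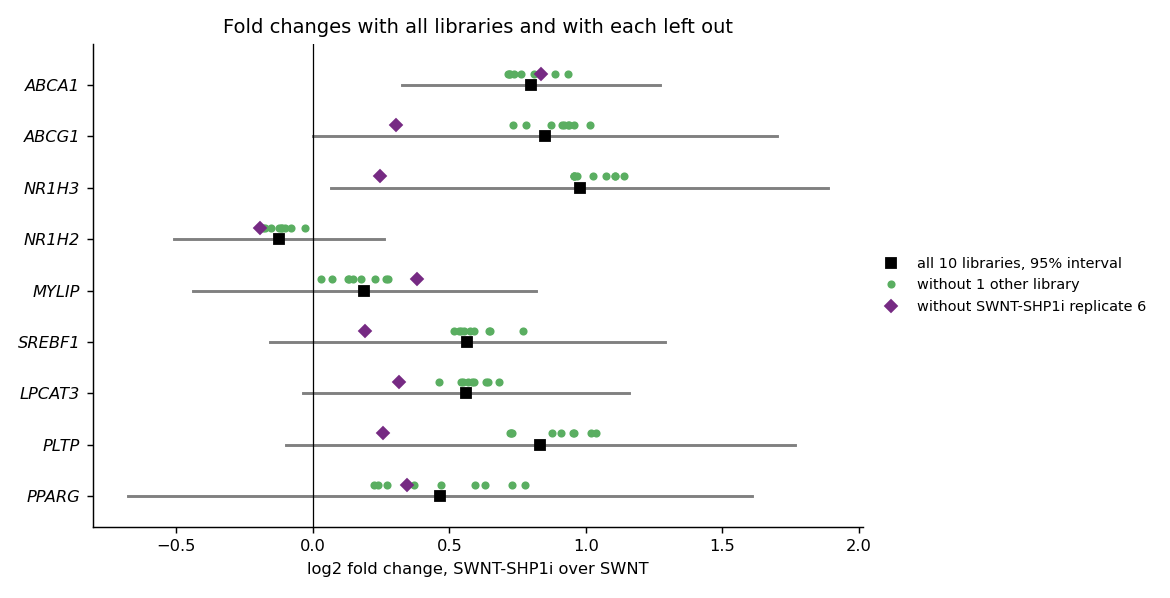
Log2 fold change of SWNT-SHP1i over SWNT for the 9 genes: squares use all 10 libraries, lines are 95% intervals, green points leave out 1 other library and purple diamonds leave out SWNT-SHP1i replicate 6. The diamond of ABCA1, at 0.83, lies among its green points, while those of ABCG1, NR1H3, SREBF1, LPCAT3 and PLTP drop to 0.19 to 0.32.

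Between animals the genes fell into different patterns. After each group was centred on its own mean, ABCG1 varied together with NR1H3 (Pearson r = 0.904 over 10 libraries), LPCAT3 (0.895), PLTP (0.833) and SREBF1 (0.784). These values lean on SWNT-SHP1i replicate 6, and without it they were 0.585, 0.728, 0.522 and 0.433. ABCA1 varied with neither ABCG1 (-0.016) nor NR1H3 (-0.16). Its highest r was with MYLIP (0.565), and it ran against NR1H2 (-0.672). Without replicate 6 ABCA1 followed PLTP (0.901) and MYLIP (0.755), and its r with NR1H2 was much the same (-0.683). Over all 36 pairs the median r was 0.32. All these values describe the same few libraries, which share their depth and cell make-up, and carry no test.

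**Figure D4:**
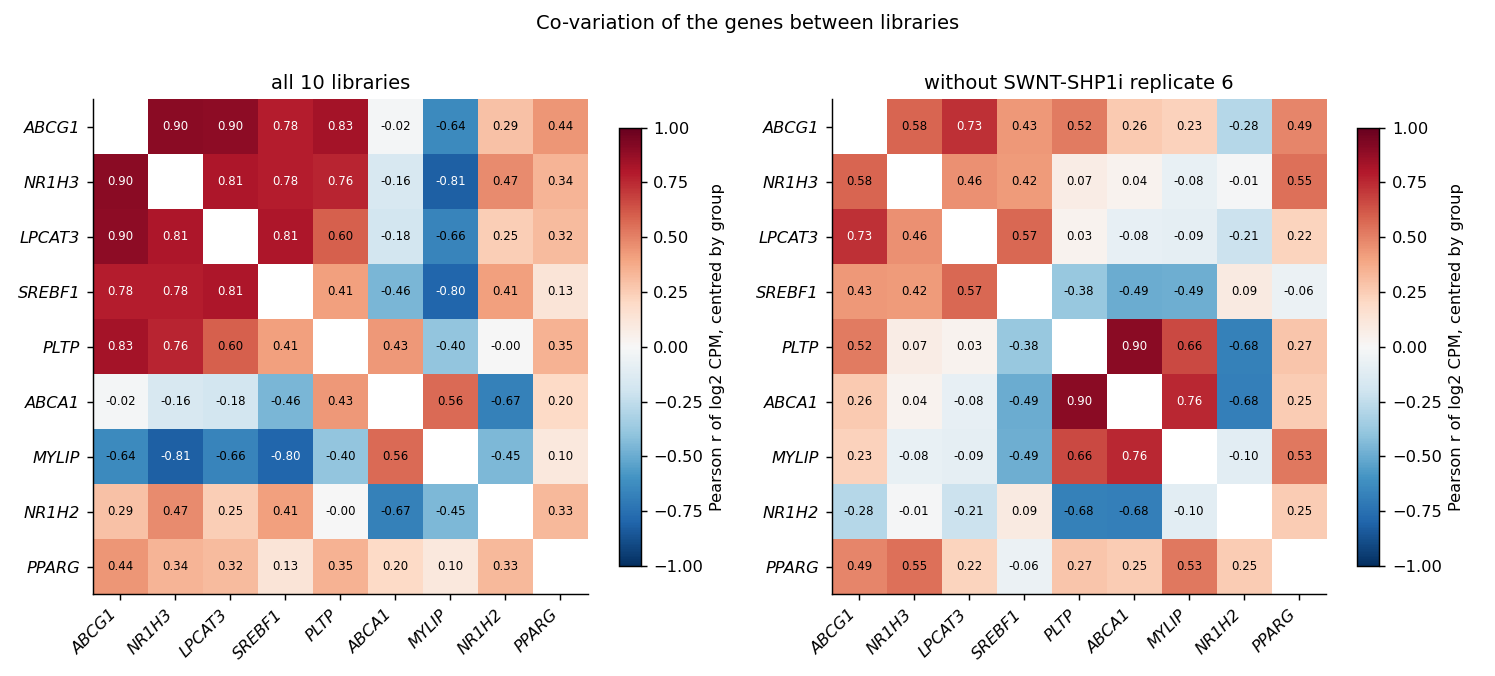
Pearson r of log2 CPM between each pair of the 9 genes, centred by group, over all 10 libraries (left) and without SWNT-SHP1i replicate 6 (right); red is positive and blue negative. ABCG1, NR1H3, LPCAT3, SREBF1 and PLTP form a red block on the left that fades on the right, where ABCA1, PLTP and MYLIP come together.

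The genes most like each one in that measure were taken by a fixed rule, the 3 highest r among named genes. For ABCA1 they were WNT2B (0.867), RPH3A (0.827) and CCDC152 (0.821), and 0 genes reached an absolute r of 0.9. Without SWNT-SHP1i replicate 6 these were 0.865, 0.826 and 0.832. For ABCG1 they were PLLP (0.98), RPF2 (0.967) and APOE (0.959), the last being the apolipoprotein that LXRs raise in macrophages. For NR1H3 they were LMAN2 (0.991), PGD (0.986) and FADD (0.985), out of 1796 genes with an absolute r of at least 0.9. Both sets lean on SWNT-SHP1i replicate 6, without which r was 0.922, 0.872 and 0.835 for the ABCG1 set and 0.826, 0.769 and 0.787 for the NR1H3 set, and the genes at 0.9 or more numbered 110 for NR1H3. For LPCAT3 they were CD52 (0.985), HCLS1 (0.983) and SLC49A3 (0.979), of which CD52 and HCLS1 are leukocyte genes. SREBF1 was most like PTP4A3 (0.986), PPFIA3 (0.97) and FCGR1A (0.965), an Fc receptor of myeloid cells. Among the closest genes were RRAS (0.97) and GTPBP1 (0.957) for NR1H2, and the closest were FBXO48 (0.968), CLK1 (0.957) and ABLIM1 (0.955) for MYLIP. They were ADPRM (0.937), SLC5A10 (0.924) and DCLRE1B (0.917) for PLTP, and ASB9 (0.947), NOVA2 (0.94) and CCNB2 (0.91) for PPARG. Without replicate 6 r was 0.867, 0.807 and 0.788 for the PLTP set and 0.923, 0.901 and 0.852 for the MYLIP set. Genes with an absolute r of at least 0.9 to MYLIP went from 128 to 3. The LPCAT3, SREBF1, NR1H2 and PPARG sets stayed above 0.9 without it.

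Macrophage markers were set beside each gene, since all 20 had positive fold changes, with a median log2 fold change of 1.12. Without SWNT-SHP1i replicate 6, 19 of 20 were positive and the median was 0.80, and it was 0.66 without replicates 3 and 6. Their mean level was 5.18, 5.49, 4.99, 3.60 and 6.36 log2 CPM in SWNT-SHP1i replicates 1, 2, 3, 5 and 6, against 4.92, 3.49, 3.57, 4.15 and 4.01 in SWNT replicates 1 to 5. Across the 10 libraries the highest correlation was that of LPCAT3, with r = 0.92 (permutation p = 3e-05, adjusted p = 0.000405 over 27 relations) and rho = 0.903 (permutation p = 0.00076, adjusted p = 0.00684). ABCG1 gave r = 0.852 (permutation p = 0.00084, adjusted p = 0.00454) and rho = 0.855 (permutation p = 0.00287, adjusted p = 0.0155), and NR1H3 gave r = 0.779 (permutation p = 0.00055, adjusted p = 0.00371) and rho = 0.879 (permutation p = 0.00176, adjusted p = 0.0119). Leaving out the 2 libraries farthest from the median, SWNT-SHP1i replicate 6 and SWNT replicate 2, left r at 0.885, 0.712 and 0.756 for LPCAT3, ABCG1 and NR1H3. Over the 8 B9 animals r was 0.966, 0.88 and 0.781. These r span both groups, whose marker levels differ, so their p in part restate the difference between the groups. With each group centred on its own mean, a description added after the data were seen, r was 0.878, 0.795 and 0.702 for LPCAT3, ABCG1 and NR1H3, and 0.813, 0.685 and 0.688 when SWNT-SHP1i replicate 6 was also left out.

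ABCA1 gave r = 0.475 with the macrophage markers (permutation p = 0.163, adjusted p = 0.314) and rho = 0.479 (permutation p = 0.164, adjusted p = 0.316), with r = 0.394 without those 2 libraries, 0.345 over the B9 animals and -0.0366 with the groups centred. SWNT-SHP1i replicate 5 had the lowest macrophage level of its group and the highest ABCA1 of all libraries, 48.6 CPM. Replicate 1 was almost level with it in ABCA1, at 48.3 CPM, and its macrophage level of 5.18 log2 CPM was above every SWNT library. Replicate 6 had the highest macrophage level and a middling ABCA1. Whether the r of ABCA1 differs from that of ABCG1 was not tested. SREBF1 gave r = 0.789 (permutation p = 0.00523, adjusted p = 0.0177) but its rho of 0.648 had an adjusted permutation p = 0.164, and its r was 0.664 without those 2 libraries and 0.88 over the B9 animals. PLTP gave r = 0.659 (adjusted permutation p = 0.083) and rho = 0.612 (adjusted permutation p = 0.164), and its r was 0.156 without those 2 libraries. For NR1H2, MYLIP and PPARG r was -0.228, -0.436 and 0.354 (adjusted permutation p = 0.76, 0.382 and 0.497), and rho was -0.358, -0.0667 and 0.394 (adjusted permutation p = 0.526, 1.0 and 0.473).

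**Figure D5:**
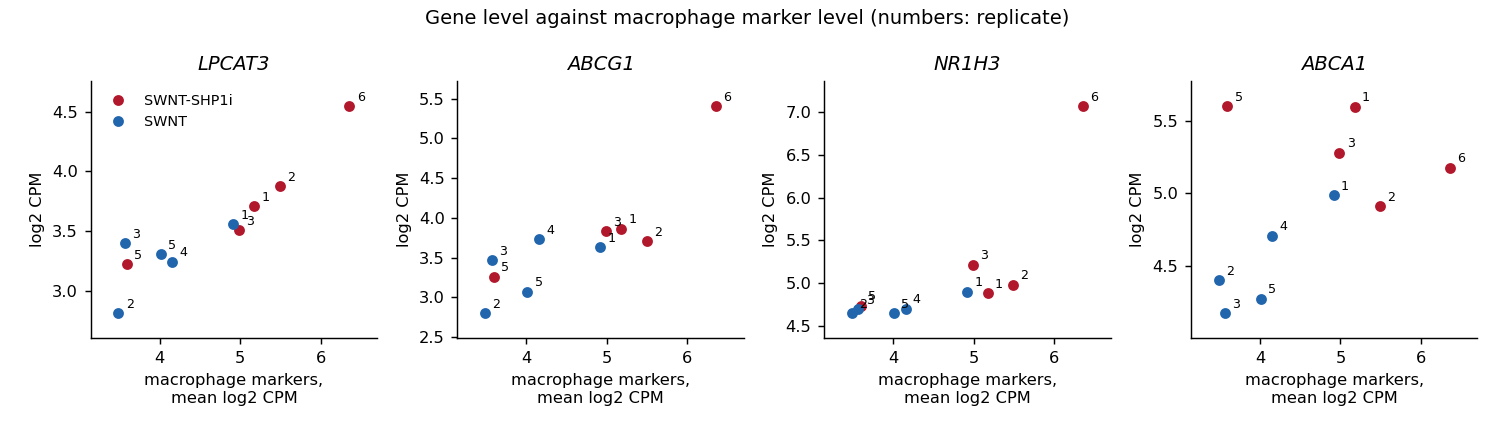
Log2 CPM of LPCAT3, ABCG1, NR1H3 and ABCA1 (y axis) against the mean log2 CPM of 20 macrophage markers (x axis) in each library; SWNT-SHP1i in red, SWNT in blue, numbers give the replicate. LPCAT3 climbs with the markers (r = 0.92). ABCA1 (r = 0.475) is highest, and almost level, in SWNT-SHP1i replicates 5 and 1, whose marker levels are 3.60 and 5.18.

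Smooth muscle and fat cell markers were compared in the same way, a choice made after the data were seen. Contractile smooth muscle markers averaged 10.6 ± 0.68 log2 CPM in SWNT-SHP1i and 11.4 ± 0.29 in SWNT (SD, n = 5 each), and 0 of their 12 genes had a positive fold change. ABCG1 ran against them with r = -0.958 (permutation p = 2e-05, adjusted p = 0.000405) and rho = -0.964 (permutation p = 8e-05, adjusted p = 0.00216), and r was -0.899 without the same 2 libraries. NR1H3 gave r = -0.895 (permutation p = 0.00033, adjusted p = 0.00297) and rho = -0.915 (permutation p = 0.00057, adjusted p = 0.00684), with r = -0.812 without those libraries. LPCAT3 (-0.875), PLTP (-0.856) and SREBF1 (-0.779) also had an r past the threshold (adjusted permutation p = 0.00914, 0.0177 and 0.0393), but their rho did not (adjusted permutation p = 0.0576, 0.116 and 0.164), and without those libraries r was -0.565, -0.52 and -0.492. These r also span both groups, whose muscle marker levels differ, so their p in part restate the difference between the groups. With the groups centred, r was -0.955 for ABCG1 and -0.872 for NR1H3. It was -0.871 and -0.716 when SWNT-SHP1i replicate 6 was also left out. ABCA1 gave r = -0.552 (adjusted permutation p = 0.202). Fat cell markers summed to 275 to 637 CPM in SWNT-SHP1i and to 234 to 821 CPM in SWNT, with 4 of 10 positive. PPARG had the highest r with them, 0.697 (permutation p = 0.0316, adjusted p = 0.083), with rho = 0.527 (adjusted permutation p = 0.255), r = 0.478 without SWNT-SHP1i replicate 1 and SWNT replicate 5, and r = 0.812 over the B9 animals. Fibroblast markers, 11 of 11 positive with or without SWNT-SHP1i replicate 6, were not set beside the genes. Their median log2 fold change was 0.48, and 0.63 without that library. The part that the mix of cells plays in the group differences of these genes was not tested.

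The wider pathway was described by lists of genes other than the 9, and 0 members of any list passed the test over all genes. Of 18 further LXR targets tested, 9 had positive and 9 negative fold changes, with a median of 0.017 (-0.036 without SWNT-SHP1i replicate 6). APOE, which carries cholesterol out of macrophages, stood at 250 to 4550 CPM in SWNT-SHP1i and at 157 to 349 CPM in SWNT. Its log2 fold change was 2.33 ± 0.73 (SE), and 0.89 without SWNT-SHP1i replicate 6. SMPDL3A, a phosphodiesterase, had 6.17 to 93.3 CPM in SWNT-SHP1i and 6.25 to 11.9 CPM in SWNT, with 1.58 ± 0.71, which was 0.034 without replicate 6. VLDLR, a receptor for triglyceride-rich lipoproteins, came next by p, with -0.58 ± 0.38, and -0.33 without replicate 6.

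LXR partners and co-regulators had 6 positive and 10 negative fold changes, with a median of -0.061. By p the coactivators NCOA1 (log2 fold change -0.52 ± 0.49, SE), NCOA6 (-0.28 ± 0.27) and NCOA3 (-0.21 ± 0.21) came first, with the LXR partner RXRG (-0.43 ± 0.46). With 1 library left out, NCOA1 ran from -0.97 to -0.28, NCOA6 from -0.42 to -0.15 and NCOA3 from -0.36 to -0.081, lowest without SWNT-SHP1i replicate 5 and highest without replicate 6. RXRG ran from -1.05 without SWNT-SHP1i replicate 3 to -0.21 without replicate 1. PPARG targets had 4 positive and 10 negative fold changes, with a median of -0.28. CPT1A and PDK4, which steer mitochondria towards fatty acids, had log2 fold changes of -0.40 ± 0.37 and -0.80 ± 0.79, and the lipid droplet coats PLIN1 and PLIN2 had -0.80 ± 0.90 and 0.18 ± 0.25. Without SWNT-SHP1i replicate 5 PDK4 was -2.29, CPT1A -0.76 and PLIN1 -1.53. CPT1A was -0.19 without SWNT replicate 3, PLIN1 was -0.17 without SWNT replicate 1, PDK4 was -0.51 without SWNT-SHP1i replicate 6, and PLIN2 was -0.0095 without SWNT-SHP1i replicate 6.

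Genes that move cholesterol within the cell had 11 positive and 10 negative fold changes, with a median of 0.059 (-0.0036 without SWNT-SHP1i replicate 6). NPC2 and LIPA, which free cholesterol in the lysosome and pass it on, had log2 fold changes of 0.87 ± 0.34 and 0.87 ± 0.39 (SE), and 0.42 and 0.47 without SWNT-SHP1i replicate 6. SOAT1, which stores cholesterol as ester, had 0.53 ± 0.24, and 0.47 without that library. SCARB1, the receptor for high-density lipoprotein, had 0.94 ± 0.49, and 0.24 without it. Sterol-sensing and synthesis genes had 14 positive and 11 negative fold changes and a median of 0.028. Their smallest p values belonged to MVK (0.55 ± 0.30), MVD (0.72 ± 0.41), FDPS (0.42 ± 0.27) and IDI1 (0.33 ± 0.26), and without replicate 6 MVD gave 0.11 and FDPS 0.09.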

How the data were processed

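The authors deposited raw read counts per gene, with exon coordinates and summed exon length per the file headers. Trim Galore, STAR and DESeq2 and the build Sscrofa11.1 are named in the submitters' processing notes, while no source used here gives the counting program or its strand setting. Each library is 1 animal, and replicate numbers follow accession order and pair no animals. No pair of libraries looked like 1 library deposited again (lowest median chi-square per gene 5.56).

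Genes with no symbol in the table were named from a table of gene identifiers (223 genes) or by position, where the span shared with a RefSeq gene on Sscrofa11.1 was 0.5 or more of the 2 spans merged (882 genes, PLTP among them).

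Counts were filtered with filterByExpr (minimum count 10), scaled by TMM and tested with the robust quasi-likelihood test of edgeR 4.0.16 (R 4.3.3), SWNT-SHP1i over SWNT, with no covariate and Benjamini-Hochberg adjustment over all genes. The script was tested on simulated data. The SE is the absolute log2 fold change over the square root of F. Log2 CPM used a prior count of 2, and TPM used the exon length over all genes. Permutation tests of correlations were two-sided with 100000 draws. Group differences in TPM, likeness without replicate 6 and centred marker correlations were added after the data were seen. Alternatives used limma 3.58.1, DESeq2 1.42.0, other scalings and filters, a term for animal numbers that begin with B9, and sets of libraries left out.

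All 9 genes were named, as were the 4 genes of smallest p in each pathway list and the 3 genes most like each of the 9, except for genes that are not reported here. The genes and lists were chosen with earlier results of these data known.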

Additional observations from a re-analysis of the deposited data

Results flagged for a closer look

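In groups of 5, a library was singled out when its gap to the nearest other library exceeded 0.71 of the group's range on the log2 scale. Among 22 such groups (9 genes and 2 ratios), 4 had such a library, where chance gives about 5% of groups. The share of all genes tested that this rule singles out was not counted, so the 4 are no result about these genes. The groups are also not separate, since the ratios are built from the same genes and were chosen after their values were seen. SWNT-SHP1i replicate 6 stood above its group for ABCG1, at 5.41 log2 CPM, and for NR1H3, at 7.07 log2 CPM. The same library stood above its group in the log2 ratio of NR1H3 to NR1H2, at -0.99. SWNT replicate 1 stood above the other SWNT libraries for NR1H3, at 4.90 log2 CPM, in a group whose whole range was 4.65 to 4.90. SWNT-SHP1i replicate 6 also had the highest macrophage marker level (6.36 log2 CPM) and the lowest smooth muscle marker level (9.56), and SWNT replicate 1 had the highest macrophage marker level of its group (4.92). Their part in these values was not tested.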

How the results depend on the processing

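The count of genes called was 0 under all 22 alternatives, a threshold of 0.1 included. Over the 21 alternatives run on each gene, ABCA1, ABCG1, NR1H3, MYLIP, SREBF1, LPCAT3 and PLTP stayed positive, NR1H2 stayed negative, and 0 fell under an adjusted p of 0.05, though DESeq2 gave NR1H3 no p. With limma-voom, which weights libraries by quality, the log2 fold change was 0.24 for NR1H3, 0.30 for PLTP, 0.47 for ABCG1, 0.38 for SREBF1 and 0.74 for ABCA1. The smallest adjusted p of ABCA1 was 0.259, with DESeq2. PPARG changed direction once, to -0.067 without SWNT-SHP1i replicates 3 and 6; the cause was not tested. With each library left out in turn, the log2 fold change ran from 0.72 to 0.93 for ABCA1, 0.30 to 1.02 for ABCG1, 0.25 to 1.14 for NR1H3, 0.19 to 0.77 for SREBF1, 0.32 to 0.68 for LPCAT3, 0.26 to 1.03 for PLTP, 0.22 to 0.78 for PPARG, 0.028 to 0.38 for MYLIP and -0.19 to -0.03 for NR1H2. The low ends of ABCG1, NR1H3, SREBF1, LPCAT3 and PLTP came without SWNT-SHP1i replicate 6. No paired analysis was possible because the labels give no replicate numbers shared by the groups. Fits without chosen libraries rest on fewer animals, and the width of the intervals limits what 5 animals a group can show.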

Other observations

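SREBF1 hosts the precursor of the microRNA miR-33b, a family known from human and mouse cells to repress ABCA1. The table lists this precursor, ssc-mir-33b, inside the SREBF1 span, with 22 counts over all 10 libraries together, and poly-A libraries do not measure mature microRNAs.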
